A study of Mus musculus with 9 samples.

Results

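The 6 libraries of the 2 H3K9 lysine methyltransferase (KMT) mutants, S1S2 and G9Gl, were pooled and set against the 3 WT libraries, which together are 9 of the 9 samples of the study. All were total RNA-seq libraries of mouse embryonic fibroblasts (MEFs), 3 per genotype. S1S2 cells carry knockouts of Suv39h1 and Suv39h2, and G9Gl cells carry knockouts of G9a (gene Ehmt2) and Glp (gene Ehmt1). Per the study's methods, the cells called WT are an Eset1-conditional MEF clone with a tamoxifen-inducible Cre, from which both mutants were made by CRISPR/Cas9, puromycin selection and single-cell sorting. One clone of each double knockout was kept because the targeted proteins were absent on western blots. An inducible Cre construct with a puromycin marker was then put back into the edited cells, which were kept in puromycin. No tamoxifen treatment is given for these samples. The replicates are taken as cultures of a clone, so p-values measure the spread between cultures. Genotype, clone and the editing procedure, which the WT cells did not go through, cannot be told apart. Nor can the added construct and the continued puromycin, which the methods give for the edited lines.

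Of 47937 genes in the table, 15540 had enough reads to be tested. A gene was called when the mean of the 2 mutants, each genotype with equal weight, differed from WT at least 2-fold with an adjusted p of at most 0.01 in edgeR. A gene was counted as separated when its level in all 6 mutant libraries lay above, or in all 6 below, the 3 WT libraries, whatever the size of the difference. Levels are CPM, the counts scaled to a common library total by the trimmed mean of M-values. Fold changes are fitted values on the log2 scale. The standard errors (SE) beside them are not from the fit. They come from the spread of log2 CPM, with a prior count of 2, between the libraries of each genotype. That prior narrows the spread near the floor.

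As background, the SUV39H enzymes place trimethylation on H3K9, mainly in the heterochromatin around centromeres and over repeats, whereas G9a and GLP work as a complex that places mono- and dimethylation along the chromosome arms. Both marks are bound by repressive proteins and are associated with silent chromatin. Several functions recur below. Cells that sense foreign or misplaced nucleic acid make type I interferon, which acts through STAT2 and IRF9 on the interferon-stimulated response element (ISRE), a short DNA motif in the promoters of antiviral genes. The p53 protein switches on genes for growth arrest and apoptosis. Fibroblasts are defined by the collagens, proteoglycans and growth factor receptors they make.

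Among gene lists with at least 10 tested members, the largest share of members both called and separated was in a list of interferon-induced antiviral effectors. The stretch just before the transcription start is shown for its leading members, to let the ISRE be seen in place. Capitals mark the core of the ISRE, GAAANNGAAA on either strand, where overlapping matches run together. Sequences are from RefSeq on GRCm38.p6 and read 5′ to 3′ along the gene, over the 150 bases before the start.
Oas3 (chr5:120777660-120777809, minus strand): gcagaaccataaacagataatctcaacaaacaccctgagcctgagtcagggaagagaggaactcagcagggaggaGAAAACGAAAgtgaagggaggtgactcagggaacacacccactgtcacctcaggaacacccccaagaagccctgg
Oas1g (chr5:120887614-120887763, minus strand): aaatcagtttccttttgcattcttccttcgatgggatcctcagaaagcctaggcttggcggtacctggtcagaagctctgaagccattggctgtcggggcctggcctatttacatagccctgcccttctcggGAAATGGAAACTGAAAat
Slfn2 (chr11:83064962-83065111, plus strand): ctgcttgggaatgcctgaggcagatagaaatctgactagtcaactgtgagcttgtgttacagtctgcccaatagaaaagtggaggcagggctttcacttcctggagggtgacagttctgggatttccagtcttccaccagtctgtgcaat
Slfn8 (chr11:83020811-83020960, minus strand): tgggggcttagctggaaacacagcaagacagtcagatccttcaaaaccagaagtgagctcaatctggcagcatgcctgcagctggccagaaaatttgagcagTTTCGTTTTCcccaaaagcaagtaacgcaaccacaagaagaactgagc
Oas3 held the core 1 time in the printed bases, Oas1g 2 times in overlapping positions and Slfn8 1 time on the other strand, while those letters were not in the window of Slfn2. Iigp1, Usp18 and Oas2, other leading members, had no entry. Over windows of 300 bases, from 250 before to 50 after the start, the core was present for 16 of the 23 called and separated effectors with an entry (69.6%), and for 9 of the 23 other effectors with an entry (39.1%). It was present for 381 of 10242 tested genes with an entry (3.72%) and in 1131 of all 32851 promoters in the table (3.44%). A match describes the letters of a promoter and is not evidence of binding in these cells.

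The libraries held 21319778 to 32157623 counts, and 3 counts, taken as the floor of detection, stood for 0.0923 to 0.141 CPM. Pearson correlations of log2 CPM were at least 0.9928 within genotypes and at most 0.9661 between them. In the targeted genes, transcripts were still detected in every mutant library. Suv39h1 was at 112, 108 and 103 CPM in WT, at 43.1, 44.2 and 38.3 CPM in S1S2 and at 101, 102 and 107 CPM in G9Gl. Ehmt1 was at 102, 106 and 103 CPM in WT, at 90.2, 89.8 and 87.5 CPM in S1S2 and at 51.8, 50.3 and 48.6 CPM in G9Gl. Ehmt2 was at 129, 132 and 114 CPM in WT, at 165, 168 and 161 CPM in S1S2 and at 57.4, 53.5 and 51.9 CPM in G9Gl. Suv39h1 was thus lower in S1S2 alone and Ehmt2 was lower in G9Gl alone, while Ehmt1 was lowest in G9Gl and also lay below WT in all 3 S1S2 libraries. Suv39h2, the other gene targeted in S1S2, stood at 33.9 ± 0.670 CPM in WT, 55.2 ± 2.34 in S1S2 and 29.1 ± 2.20 in G9Gl (SD, n = 3), highest in the cells that were edited in it. Counts over a whole gene need not fall when CRISPR/Cas9 disrupts its reading frame, so these levels are only a partial check of the labels. The KMT gene that was not targeted but was separated was Setdb1, which encodes ESET, with 53.5 ± 1.38 CPM in WT, 41.3 ± 0.506 in S1S2 and 47.7 ± 2.99 in G9Gl (SD, n = 3) and a pooled log2 fold change of -0.27 ± 0.03 (SE, edgeR adjusted p = 0.000125). Setdb2 was not separated.

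The pooled contrast called 621 genes higher in the mutants (4.0% of those tested) and 437 lower (2.81%). All 6 mutant libraries lay above WT for 1917 genes (12.3%) and below WT for 1801 genes (11.6%). Both conditions held for 419 genes on the higher side (2.70%) and for 260 on the lower side (1.67%). The description below starts from these genes and also takes in genes and lists outside them. The pooled call alone was not enough to show a shift common to both mutants. Of the 621 genes called higher, 134 were above WT in the G9Gl libraries alone, 51 in the S1S2 libraries alone, and 17 were above WT in one mutant and below it in the other. Of the 437 called lower, 59 were below WT in S1S2 alone, 52 in G9Gl alone, and 66 went opposite ways. Both mutants passed the call on their own in 248 of the 419 and 131 of the 260 genes. A fit that treated the 6 mutant libraries as 1 group, and so counted the difference between mutants as error, called 187 genes higher, of which 184 were among the 419, and 93 lower, all of them among the 260.

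**Figure D1:**
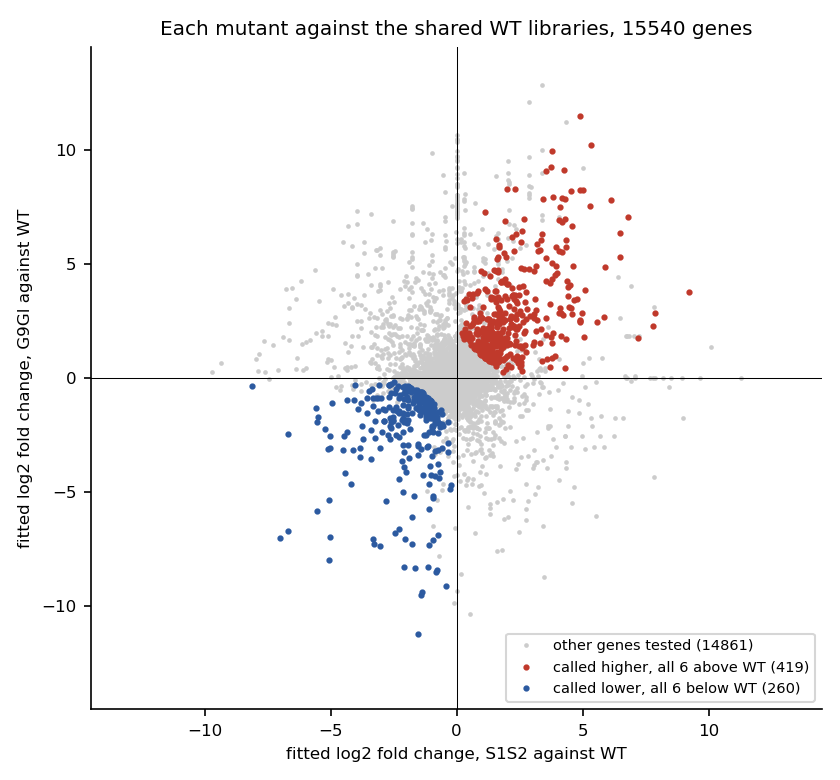
Fitted log2 fold changes of S1S2 (x axis) and G9Gl (y axis) against the same 3 WT libraries, 1 point per tested gene. Red points are the 419 genes called higher with all 6 mutant libraries above WT, blue points the 260 called lower with all 6 below, and the axes share the WT libraries, so points lean to the diagonal by construction.

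Most separated genes moved little. The median absolute log2 fold change was 0.43 among the 1917 genes above WT (interquartile range 0.25 to 0.90) and 0.35 among the 1801 below (0.23 to 0.64). Of the 419, 234 had a WT mean under 1 CPM (55.8%, against 18.6% of all tested genes), and 62 had no more than 3 counts in any WT library (14.8%, against 1.83%). Genes without reads in WT could be tested only if a mutant was high, so the low-count filter sets part of these shares. Of the 260 falls, 72 had a WT mean of 10 CPM or more (27.7%, against 58.7% of all tested genes), 130 one of 1 to 10 CPM (50%, against 22.7%) and 58 one under 1 CPM (22.3%). Protein-coding genes made up 90.9% of the rises and 81.2% of the falls, against 79.6% of all tested genes. Unconfirmed loci of the TEC class made up 8.08% of the falls and 0.716% of the rises, against 5.04% of all tested genes. Where a filter kept only genes with at least 10 counts in every library, 235 rises and 123 falls were left.

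**Figure D2:**
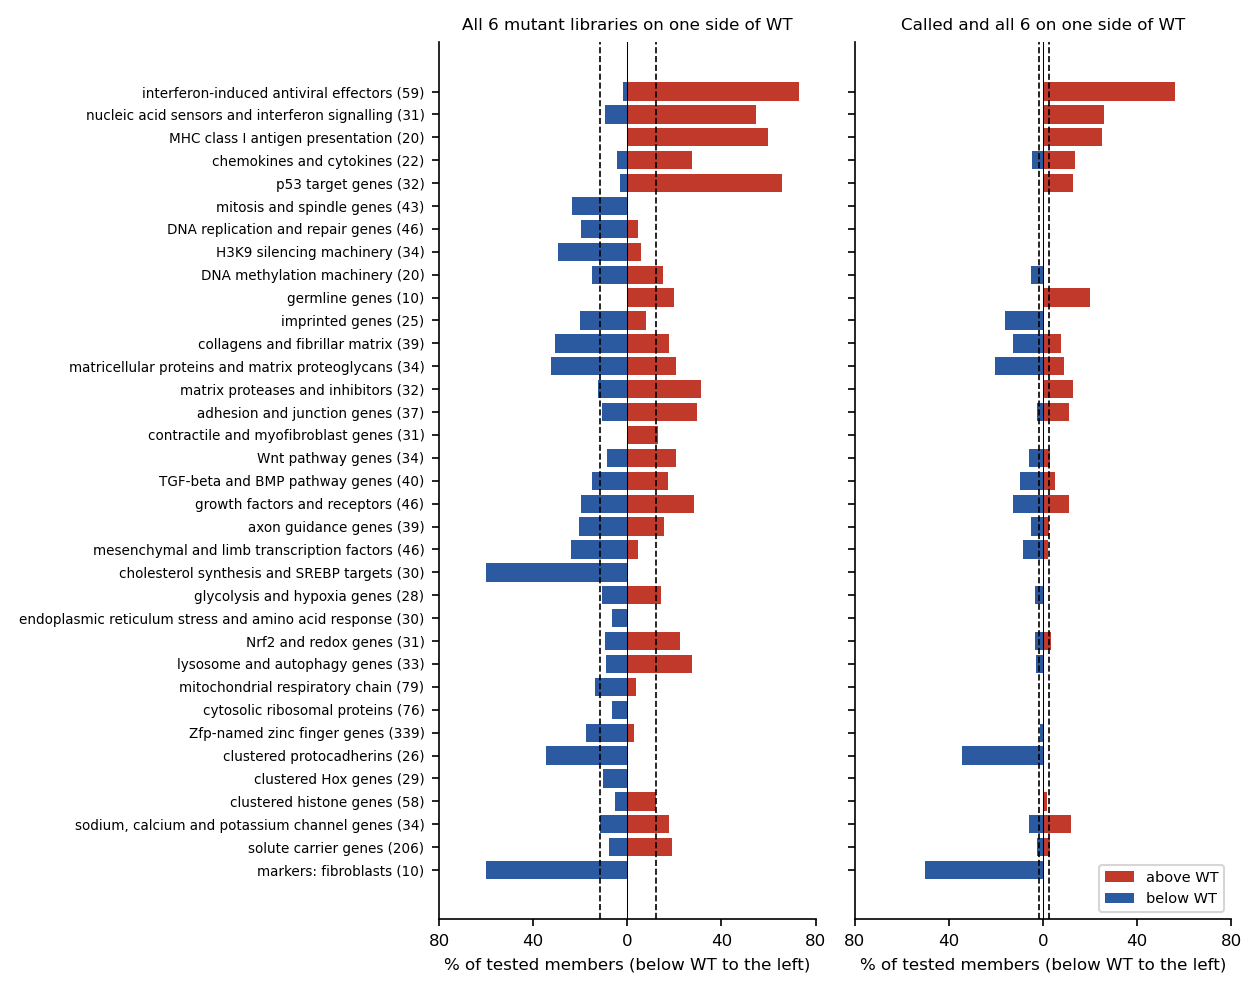
Share of tested members of each gene list, with at least 10 tested, whose 6 mutant libraries all lay above WT (red, to the right) or below it (blue, to the left), in % and with the number tested in parentheses. The left panel takes all separated genes and the right panel those also called, and dashed lines mark the shares over all tested genes (12.3% and 11.6% on the left, 2.70% and 1.67% on the right), which the interferon effectors pass furthest on the higher side.

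Most interferon-induced antiviral effectors lay above WT in both mutants. Of 62 listed genes, 59 were tested, and all 6 mutant libraries were above WT for 43 of them and below for 1. Called and separated were 33 (55.9%, against 2.70% of all genes), all higher. The median pooled log2 fold change of the list was 2.17, against -0.005 over all genes tested, and the medians for S1S2 and G9Gl alone were 1.13 and 2.27. The oligoadenylate synthetases, which make the messenger that activates the RNA-degrading enzyme RNase L, were among the larger rises. Oas3 was at 0.0615, 0.0661 and 0 CPM in WT, at 4.55, 5.29 and 5.83 CPM in S1S2 and at 8.88, 5.64 and 4.08 CPM in G9Gl. Since WT was at the floor, the rise was at least 52.7-fold in S1S2 and at least 62.5-fold in G9Gl. The G9Gl libraries spanned those of S1S2. Oas2 was at 0.0615, 0.0661 and 0.0967 CPM in WT, at 1.29, 1.24 and 1.55 CPM in S1S2 and at 17.97, 12.1 and 12.04 CPM in G9Gl. Oas1g was at 0, 0.0331 and 0 CPM in WT, at 0.690, 0.510 and 0.658 CPM in S1S2 and at 21.9, 14.7 and 16.9 CPM in G9Gl. Those 2 genes were higher in every G9Gl library than in any S1S2 library, and the smaller rise, in S1S2, was at least 13.7-fold for Oas2 and at least 6.25-fold for Oas1g. Oas1g shares 36.9% of its 75-base windows with other genes, mainly Oas1a, so reads may be divided between the pair.

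Usp18 encodes a protease that removes the ubiquitin-like protein ISG15 and damps the interferon receptor. Usp18 was at 0.123, 0.0992 and 0.322 CPM in WT, at 3.63, 3.90 and 3.53 CPM in S1S2 and at 28.9, 19.1 and 20.99 CPM in G9Gl. Its pooled log2 fold change was 5.63 ± 0.39 (SE, edgeR adjusted p = 2.64e-11). Slfn2, a Schlafen gene, was not detected in WT. Slfn2 was at 0, 0 and 0 CPM in WT, at 0.138, 0.0729 and 0.188 CPM in S1S2 and at 14.8, 11.6 and 11.5 CPM in G9Gl. The S1S2 value rests on few reads and was at least 1.34-fold over the WT floor, whereas that of G9Gl was at least 128-fold over it. Its relative Slfn8 had 0.201 ± 0.150 CPM in WT, 0.986 ± 0.253 in S1S2 and 9.71 ± 2.86 in G9Gl (SD, n = 3). Iigp1 was at 0.0615, 0 and 0 CPM in WT, at 0.368, 0.693 and 0.752 CPM in S1S2 and at 3.72, 1.72 and 2.45 CPM in G9Gl. Iigp1 encodes an interferon-inducible GTPase that attacks the vacuoles of intracellular parasites, and the smaller of its rises, in S1S2, was at least 6.09-fold. Among the 33 effectors, 16 rose more in G9Gl and 5 more in S1S2 by the test between the mutants. In the fit with the mutants as 1 group, 14 effectors were called, and with at least 10 counts in every library 20 were left. The lowest pooled log2 fold change of the list was that of Ifitm1, one of the genes for membrane proteins that block virus entry, at -1.05 ± 0.25 (SE, edgeR adjusted p = 0.0131) and without a call. It had 0.736 ± 0.111 CPM in WT, 0.237 ± 0.0861 in S1S2 and 0.516 ± 0.243 in G9Gl (SD, n = 3), and the WT and mutant libraries overlapped. Its relative Ifitm2 was the member with all 6 mutant libraries below WT, with 88.5 ± 3.91 CPM in WT, 68.3 ± 3.90 in S1S2 and 74.7 ± 2.62 in G9Gl (SD, n = 3).

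**Figure D3:**
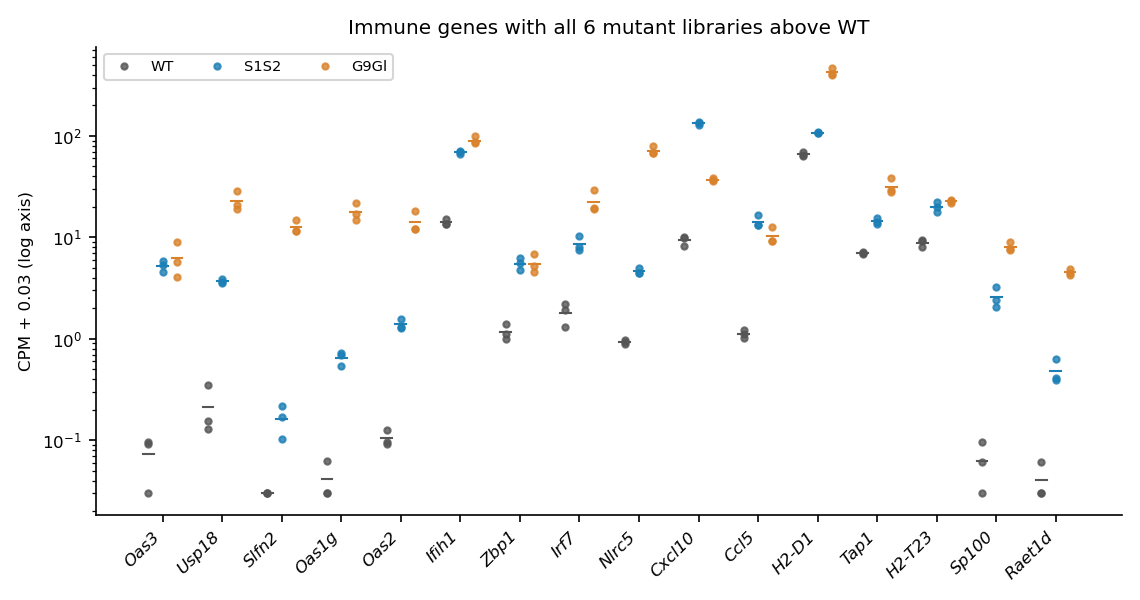
CPM plus 0.03 on a log axis for 16 immune genes, 1 point per library and a bar at the mean of each genotype (n = 3). All points of both mutants lie above those of WT, from Slfn2, at 0 CPM in WT, to H2-D1, at 63.5 CPM or more.

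Genes that sense nucleic acids or carry the interferon signal were separated above WT in 17 of 31 tested members (54.8%, against 12.3% of all genes) and below in 3 (9.68%, against 11.6%). Called and separated were 8 (25.8%, against 2.70%), all higher, and the median pooled log2 fold change was 0.36. The sensor of long double-stranded RNA MDA5, encoded by Ifih1, was among them. Ifih1 was at 13.7, 13.4 and 15.2 CPM in WT, at 66.4, 69.03 and 70.8 CPM in S1S2 and at 99.5, 86.3 and 84.2 CPM in G9Gl. The pooled log2 fold change was 2.48 ± 0.07 (SE, edgeR adjusted p = 1.12e-14), with 2.28 in S1S2 and 2.67 in G9Gl. Zbp1, whose product binds left-handed nucleic acids and can trigger necroptosis, rose too, and the mutants overlapped. Zbp1 was at 1.08, 0.959 and 1.35 CPM in WT, at 4.69, 5.61 and 6.16 CPM in S1S2 and at 6.77, 5.17 and 4.50 CPM in G9Gl. Irf7 was at 1.88, 1.29 and 2.16 CPM in WT, at 7.95, 7.54 and 10.2 CPM in S1S2 and at 28.99, 19.1 and 19.3 CPM in G9Gl. Irf7 encodes the factor that amplifies interferon transcription, and its pooled log2 fold change was 2.96 ± 0.24 (SE, edgeR adjusted p = 9.22e-10). Nlrc5 was at 0.861, 0.893 and 0.935 CPM in WT, at 4.46, 4.99 and 4.42 CPM in S1S2 and at 79.3, 67.9 and 68.2 CPM in G9Gl. Nlrc5 encodes the main transactivator of MHC class I genes, and its rise in G9Gl was larger than that in S1S2 by 3.95 on the log2 scale (edgeR adjusted p = 2.02e-16). The 3 members below WT had small differences, the largest at -0.32 for the interferon receptor gene Ifnar2. In the fit with the mutants as 1 group, 5 genes of the list were called.

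MHC class I genes, whose products show peptides from inside the cell to T cells, were separated above WT in 12 of 20 tested members (60.0%, against 12.3% of all genes) and below in none. Called and separated were 5 (25%, against 2.70%), all higher, with a median pooled log2 fold change of 0.86 (S1S2 0.31, G9Gl 1.16). H2-T23 was at 7.998, 9.36 and 9.12 CPM in WT, at 19.9, 17.8 and 22.1 CPM in S1S2 and at 22.99, 21.7 and 23.4 CPM in G9Gl. This nonclassical class I gene rose in both, by 1.17 in S1S2 and 1.36 in G9Gl, with a pooled log2 fold change of 1.27 ± 0.08 (SE, edgeR adjusted p = 8.59e-10). H2-D1 was at 69.1, 64.1 and 63.5 CPM in WT, at 107, 106 and 108 CPM in S1S2 and at 465, 394 and 412 CPM in G9Gl. Tap1 was at 6.83, 6.97 and 7.16 CPM in WT, at 13.5, 14.2 and 15.6 CPM in S1S2 and at 38.1, 27.7 and 29.3 CPM in G9Gl. The classical gene H2-D1 and the peptide transporter gene Tap1 rose in both but more in G9Gl, with log2 fold changes of 2.69 and 2.18 there against 0.71 and 1.05 in S1S2. Psmb9 was at 0.215, 0.165 and 0.387 CPM in WT, at 0.460, 0.510 and 0.611 CPM in S1S2 and at 1.75, 1.69 and 1.40 CPM in G9Gl. Psmb9 encodes a subunit of the immunoproteasome, and it lies on the other strand from Tap1 with overlapping exons. Only H2-T23 among these kept its call in the fit with the mutants as 1 group. B2m, the shared light chain of class I molecules, was separated but not called, with 190.3 ± 16.7 CPM in WT, 212 ± 5.59 in S1S2 and 632 ± 50.1 in G9Gl (SD, n = 3).

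Chemokine and cytokine genes went both ways, more often up. Of 22 tested, 6 were separated above WT (27.3%, against 12.3% of all genes) and 1 below (4.55%, against 11.6%). With a call and separation, 3 rose (13.6%, against 2.70%) and 1 fell (4.55%, against 1.67%). The median pooled log2 fold change was 0.36. Cxcl10 was at 9.84, 10.1 and 8.28 CPM in WT, at 133, 129 and 136 CPM in S1S2 and at 35.97, 38.3 and 36.6 CPM in G9Gl. Ccl5 was at 0.984, 1.09 and 1.19 CPM in WT, at 13.2, 13.2 and 16.5 CPM in S1S2 and at 9.12, 12.7 and 9.14 CPM in G9Gl. Ccl2 was at 21.3, 24.4 and 22.3 CPM in WT, at 46.6, 49.8 and 43.9 CPM in S1S2 and at 79.95, 77.2 and 79.2 CPM in G9Gl. CXCL10 and CCL5 attract T cells and CCL2 attracts monocytes, and their pooled log2 fold changes were 2.90 ± 0.09 (SE, edgeR adjusted p = 1.09e-15), 3.47 ± 0.12 (SE, edgeR adjusted p = 1.84e-11) and 1.42 ± 0.06 (SE, edgeR adjusted p = 1.43e-12). Cxcl10 was higher in every S1S2 library than in any G9Gl library. Cxcl14 fell, with 13.3 ± 1.21 CPM in WT, 1.55 ± 0.179 in S1S2 and 4.90 ± 0.460 in G9Gl (SD, n = 3) and a pooled log2 fold change of -2.28 ± 0.09 (SE, edgeR adjusted p = 8.1e-12).

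Among the 15 largest rises by the smaller of the 2 mutants' fold changes, 6 were interferon effectors. The others included Sp100, a component of PML nuclear bodies, and Raet1d, whose product is a ligand of the activating receptor NKG2D on natural killer cells. Sp100 was at 0.0308, 0.0661 and 0 CPM in WT, at 2.02, 2.40 and 3.20 CPM in S1S2 and at 8.98, 7.69 and 7.54 CPM in G9Gl. Raet1d was at 0.0308, 0 and 0 CPM in WT, at 0.598, 0.364 and 0.376 CPM in S1S2 and at 4.46, 4.81 and 4.24 CPM in G9Gl. Both were at the floor in WT, so that the rise was at least 25.6-fold in S1S2 and 81.4-fold in G9Gl for Sp100, and at least 4.50-fold and 45.4-fold for Raet1d. Raet1d shares 44.1% of its 75-base windows with Raet1e, which overlaps it. Slc6a17 was at 0.123, 0.0661 and 0.161 CPM in WT, at 3.08, 3.17 and 2.59 CPM in S1S2 and at 3.69, 3.84 and 3.52 CPM in G9Gl. This vesicular transporter of neutral amino acids rose by 4.60 in S1S2 and 4.92 in G9Gl (log2 fold changes), with every G9Gl library above those of S1S2. Apob was at 0.123, 0.0661 and 0.129 CPM in WT, at 2.07, 2.30 and 3.20 CPM in S1S2 and at 2.25, 1.65 and 1.76 CPM in G9Gl. Apob, which encodes the main protein of low-density lipoprotein, rose by 4.50 and 4.09, and the mutants overlapped. Carboxylesterase genes of the Ces2 cluster, Ces2e, Ces2f and Ces2g, all rose from WT means of 0.0871, 0.0110 and 0.0312 CPM, to 1.63, 0.276 and 0.742 CPM in S1S2 and 4.09, 1.72 and 1.94 CPM in G9Gl. Pcdh1 and the G protein subunit gene Gng11 completed the 15, with 0.0110 ± 0.0191 CPM in WT, 0.283 ± 0.0502 in S1S2 and 8.26 ± 0.876 in G9Gl (SD, n = 3) for Pcdh1 and 0.0430 ± 0.0744 CPM in WT, 0.953 ± 0.127 in S1S2 and 3.08 ± 0.310 in G9Gl (SD, n = 3) for Gng11. Rhox5, an X-linked homeobox gene of the germline and placenta, also rose, with 0.0866 ± 0.0515 CPM in WT, 1.503 ± 0.135 in S1S2 and 10.9 ± 0.375 in G9Gl (SD, n = 3) and a pooled log2 fold change of 5.49 ± 0.30 (SE, edgeR adjusted p = 2.03e-11).

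The p53 target genes showed a broad but small shift. Of 32 tested, all 6 mutant libraries lay above WT for 21 (65.6%, against 12.3% of all genes) and below for 1, and 23 were higher with an adjusted p no greater than 0.01, whatever the fold (17.4% of all tested genes were higher by that rule). Their median pooled log2 fold change was 0.37, and 4 were called and separated (12.5%, against 2.70%). Cdkn1a was at 8.98, 8.79 and 9.64 CPM in WT, at 16.5, 15.2 and 19.7 CPM in S1S2 and at 17.9, 20.1 and 15.2 CPM in G9Gl. Mdm2 was at 93.6, 94.3 and 91.8 CPM in WT, at 126, 122 and 127 CPM in S1S2 and at 130.0, 119 and 136 CPM in G9Gl. Pmaip1 was at 13.4, 13.3 and 17.6 CPM in WT, at 24.8, 25.4 and 30.6 CPM in S1S2 and at 33.1, 31.8 and 28.5 CPM in G9Gl. These encode the cell cycle inhibitor p21, the ubiquitin ligase that degrades p53 and the apoptosis protein NOXA, and their pooled log2 fold changes were 0.93 ± 0.09 (SE, edgeR adjusted p = 6.73e-07), 0.44 ± 0.03 (SE, edgeR adjusted p = 2.09e-07) and 0.97 ± 0.14 (SE, edgeR adjusted p = 1.76e-07), under 2-fold. The groups did not overlap, and the mutants overlapped each other in all 3 genes. Called were Trp53inp1, a stress-induced cofactor of p53, with 7.42 ± 1.34 CPM in WT, 20.01 ± 1.68 in S1S2 and 23.6 ± 4.39 in G9Gl (SD, n = 3), as well as Dcxr, Cd80 and Perp. The pooled log2 fold change of Dcxr was 0.98 without WT replicate 1 and likewise without G9Gl replicate 1, short of the call. Cd80, better known as a costimulatory ligand of T cells, and Perp, a desmosomal protein, were under 1 CPM in WT and differed in size between the mutants. Ddit4, which inhibits mTORC1 and answers to other stresses too, had all 6 mutant libraries below WT, with 75.5 ± 0.232 CPM in WT, 35.1 ± 8.23 in S1S2 and 56.9 ± 8.49 in G9Gl (SD, n = 3).

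**Figure D4:**
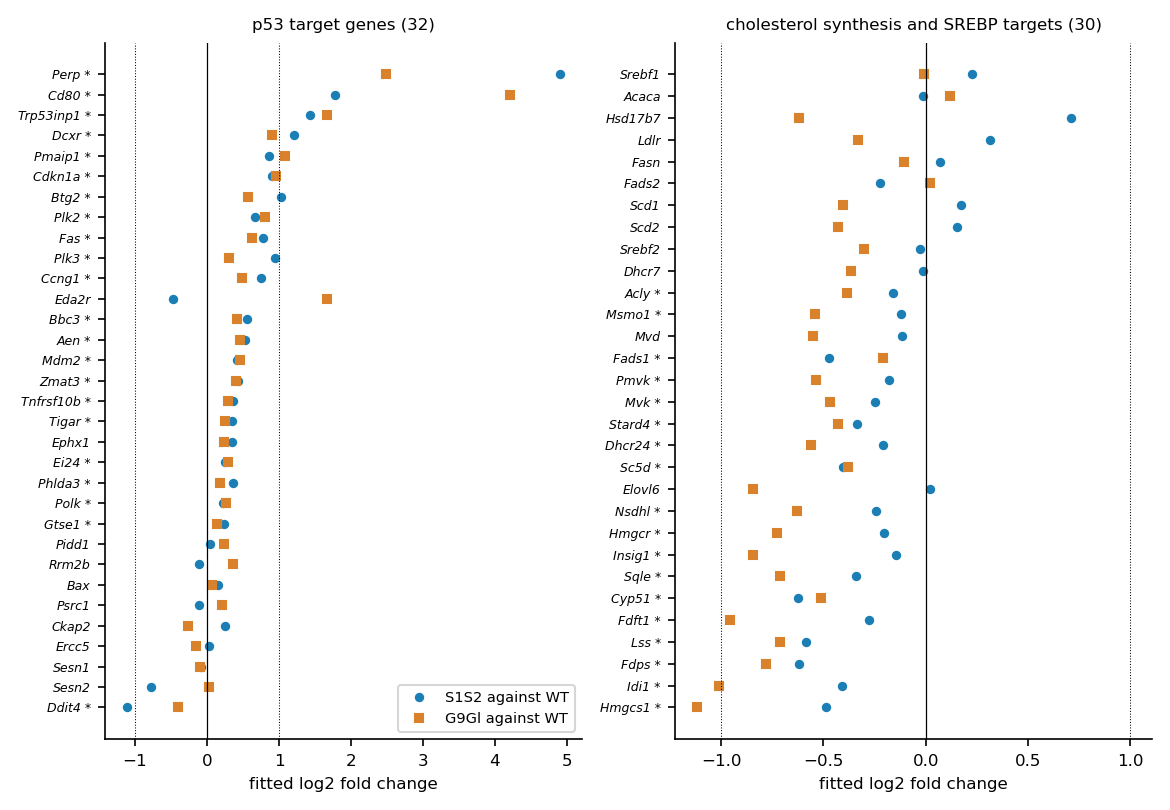
Fitted log2 fold changes of S1S2 (circles) and G9Gl (squares) against WT for 32 p53 target genes and 30 genes of cholesterol and fatty acid synthesis, ordered by the pooled value. An asterisk marks genes with all 6 mutant libraries on one side of WT, which are 22 on the left and 18 on the right, and dotted lines mark 2-fold.

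None of 43 mitosis genes and none of 46 replication and repair genes was called by edgeR or by DESeq2, and 20 and 23 of them had an unadjusted p under 0.05, a share no larger than the 51.9% of all tested genes. Separated below WT were 10 of the mitosis genes (23.3%) and 9 of the replication genes (19.6%), against 11.6% of all genes, and 0 and 2 were separated above. With an adjusted p no greater than 0.01, whatever the fold, 12 mitosis genes and 13 replication genes were lower (16.2% of all tested genes were lower by that rule). The differences ranged from -0.43 for the kinetochore gene Nuf2 to 0.45 for the mitotic transcription factor gene Foxm1, and the latter rose in S1S2 alone (0.88 against 0.02 in G9Gl). Top2a was at 1326, 1298 and 1487 CPM in WT, at 1142, 1144 and 1145 CPM in S1S2 and at 1144, 1144 and 1194 CPM in G9Gl. The gene of DNA topoisomerase II-alpha thus fell by 0.25 on the log2 scale. The pooled medians were smaller, at -0.072 for the mitosis genes and -0.063 for the replication genes. Mitosis genes as a whole did not fall in both mutants, with medians of 0.076 in S1S2 and -0.157 in G9Gl (replication genes -0.056 and -0.065). Their summed level was 8788 to 9245 CPM in WT, 8983 to 9236 in S1S2 and 7568 to 7990 in G9Gl.

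Genes of cholesterol synthesis and other targets of the transcription factor SREBP were the list with the largest share of members below WT among functional lists. All 6 mutant libraries lay below WT for 18 of 30 (60.0%, against 11.6% of all genes) and above for none, and 20 were lower with an adjusted p no greater than 0.01 (66.7%, against 16.2%). No member was called by edgeR or DESeq2, since none fell 2-fold, and 25 had an unadjusted p under 0.05 (83.3%, against 51.9%). Hmgcs1 was at 342, 340.4 and 299 CPM in WT, at 232, 244 and 223 CPM in S1S2 and at 132, 161 and 158 CPM in G9Gl. Hmgcs1, which encodes the synthase that feeds the mevalonate pathway, had the largest fall, with a pooled log2 fold change of -0.80 ± 0.08 (SE, edgeR adjusted p = 3.44e-09). The median of the list was -0.36, with -0.19 in S1S2 and -0.52 in G9Gl. The fatty acid genes Fasn, Scd1 and Srebf1 were not separated. Of 76 cytosolic ribosomal protein genes, 24 were lower in the pooled contrast at an adjusted p no greater than 0.01 (31.6%, against 16.2% of all genes) and none was higher (against 17.4%), while 5 were separated below WT (6.58%, under the 11.6% of all genes). Their median log2 fold change was 0.04 in S1S2 and -0.23 in G9Gl, and their summed level was 48197 to 49927 CPM in WT, 49363 to 51704 in S1S2 and 41390 to 43544 in G9Gl.

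The largest falls common to both mutants were in genes of varied function. Kctd15 was at 5.35, 5.69 and 5.58 CPM in WT, at 0.230, 0.0729 and 0.0470 CPM in S1S2 and at 0.175, 0.108 and 0 CPM in G9Gl. Kctd15 encodes an adaptor protein that inhibits the AP-2 transcription factor, and its pooled log2 fold change was -5.70 ± 0.34 (SE, edgeR adjusted p = 2.34e-11). Miga1 was at 5.45, 4.83 and 5.70 CPM in WT, at 0.0460, 0.146 and 0.282 CPM in S1S2 and at 0.105, 0.180 and 0.0979 CPM in G9Gl. Miga1 encodes a protein of the outer mitochondrial membrane that promotes fusion, with a pooled log2 fold change of -5.20 ± 0.26 (SE, edgeR adjusted p = 7.02e-12). For both genes the S1S2 and G9Gl values overlapped near the floor. Ptn was at 14.7, 14.7 and 14.8 CPM in WT, at 0.643, 0.693 and 0.705 CPM in S1S2 and at 1.05, 0.718 and 0.685 CPM in G9Gl. Pleiotrophin, the heparin-binding growth factor encoded by Ptn, fell by -4.43 in S1S2 and -4.17 in G9Gl (log2 fold changes), and the spread within each genotype was small. Others of the 15 largest falls were Necab2, the dynein gene Dnah7b, Serpina3g, the latrophilin gene Adgrl3, Arsi, the proton channel gene Hvcn1, Pi15 and Cdh23, with WT means between 1.04 CPM for Arsi and 12.9 CPM for Adgrl3. Hvcn1 shares 37.4% of its 75-base windows with Tctn1 and Dnah7b 21% with its relatives, so their values are uncertain.

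Several fibroblast markers fell. Of 10 tested, all 6 mutant libraries lay below WT for 6 (60.0%, against 11.6% of all genes) and above for none, and 5 were also called (50%, against 1.67%), namely Dcn, Pdgfra, Pdgfrb, Col3a1 and Col1a2. Pdgfra was at 13.8, 16.3 and 13.4 CPM in WT, at 3.36, 3.46 and 3.81 CPM in S1S2 and at 4.56, 3.73 and 3.75 CPM in G9Gl. Pdgfrb was at 55.3, 58.05 and 48.7 CPM in WT, at 23.9, 25.8 and 23.9 CPM in S1S2 and at 21.2, 20.2 and 22.7 CPM in G9Gl. The genes of both receptors for platelet-derived growth factor fell in each mutant, with pooled log2 fold changes of -1.94 ± 0.10 (SE, edgeR adjusted p = 3.53e-11) and -1.24 ± 0.08 (SE, edgeR adjusted p = 1.81e-11). Col3a1 was at 1479, 1560. and 1543 CPM in WT, at 181, 182 and 207 CPM in S1S2 and at 821, 861 and 851 CPM in G9Gl. This fibrillar collagen gene fell more in S1S2 (-3.01) than in G9Gl (-0.86). Dcn was at 7.20, 6.74 and 7.70 CPM in WT, at 1.24, 2.84 and 2.44 CPM in S1S2 and at 0.175, 0.287 and 0.131 CPM in G9Gl. The proteoglycan decorin, in contrast, fell more in G9Gl (-5.17) than in S1S2 (-1.71). Pdgfra and Pdgfrb kept their calls in the fit with the mutants as 1 group, Col3a1 and Dcn did not. Fibroblast genes were still abundant, with summed levels of the 10 markers from 9871 to 11372 CPM in WT, 7405 to 7472 in S1S2 and 7799 to 8658 in G9Gl. Vim, Fn1, S100a4 and Thy1 were not separated, and Thy1 went opposite ways in the mutants (-1.29 in S1S2, 2.94 in G9Gl).

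Genes of the matrix moved in both directions. Of 34 matricellular proteins and proteoglycans, 7 fell (20.6%) and 3 rose (8.82%) with a call and separation, and of 39 collagens and fibrillar components 5 fell (12.8%) and 3 rose (7.69%). Over all tested genes the shares were 1.67% and 2.70%. Neither list as a whole shifted the same way in both mutants. The median log2 fold change of the matricellular and proteoglycan list was -0.665 in S1S2 and 0.205 in G9Gl. That of the collagen list was -0.355 in S1S2 and 0.253 in G9Gl. Fmod was at 3.91, 3.11 and 3.19 CPM in WT, at 0.138, 0.109 and 0.0470 CPM in S1S2 and at 0, 0.0359 and 0.0326 CPM in G9Gl. Fibromodulin, a collagen-binding small proteoglycan, reached the floor in both mutants, so that the fall was at least 24.1-fold in S1S2 and 31.6-fold in G9Gl. Omd was at 6.21, 4.83 and 7.96 CPM in WT, at 0.368, 0.729 and 0.470 CPM in S1S2 and at 2.53, 2.55 and 1.47 CPM in G9Gl. Osteomodulin, of the same family, fell more in S1S2. Fbn2 was at 283, 291 and 306 CPM in WT, at 9.19, 9.55 and 9.50 CPM in S1S2 and at 138, 130.2 and 143 CPM in G9Gl. Fibrillin-2, a microfibril protein, fell by -4.96 in S1S2 and -1.10 in G9Gl, and fibulin-1, encoded by Fbln1, had 19.2 ± 0.876 CPM in WT, 7.78 ± 0.934 in S1S2 and 3.45 ± 0.840 in G9Gl (SD, n = 3). On the higher side were the matricellular genes Ccn2 and Ccn1, both targets of YAP and TEAD, and the basement membrane gene Col18a1. Ccn2 was at 32.5, 43.7 and 26.3 CPM in WT, at 120.0, 112 and 92.7 CPM in S1S2 and at 154, 195 and 172 CPM in G9Gl. Its pooled log2 fold change was 2.01 ± 0.23 (SE, edgeR adjusted p = 5.09e-10). Ccn1 was at 154, 172 and 136 CPM in WT, at 337, 319 and 302 CPM in S1S2 and at 293, 337 and 316 CPM in G9Gl. Its pooled log2 fold change was 1.04 ± 0.10 (SE, edgeR adjusted p = 4.78e-10), and it was 0.96 without WT replicate 3, short of the call. Col18a1 had 32.97 ± 4.47 CPM in WT, 70.1 ± 1.24 in S1S2 and 89.5 ± 2.75 in G9Gl (SD, n = 3). Col7a1, the gene of anchoring fibril collagen, was called too, with a log2 fold change of 0.90 and no call without WT replicate 3.

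**Figure D5:**
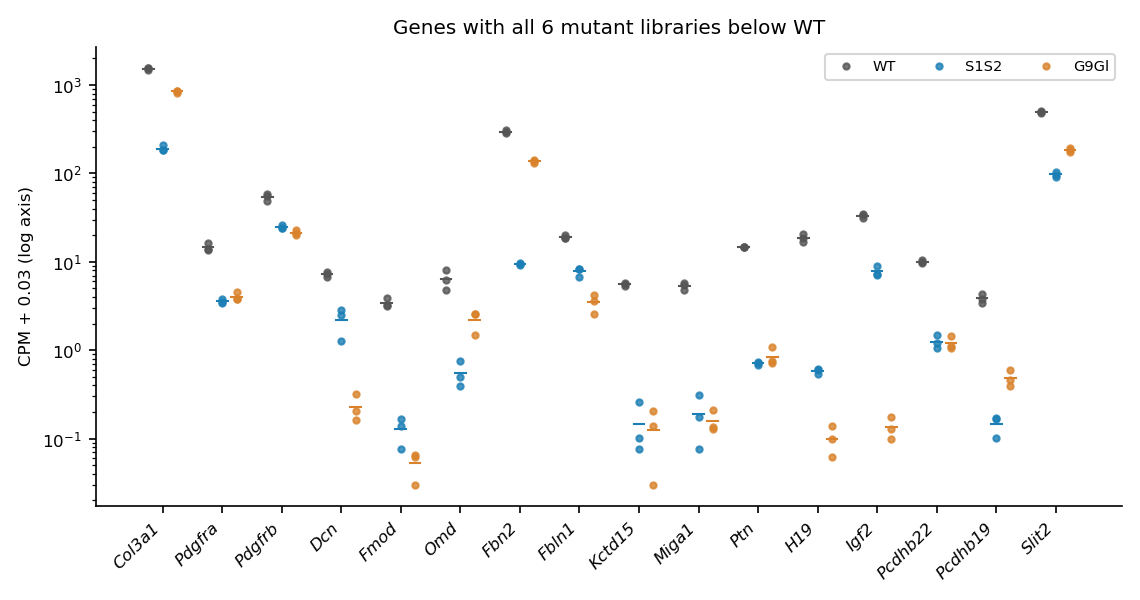
CPM plus 0.03 on a log axis for 16 genes that fell, 1 point per library and a bar at the mean of each genotype (n = 3). The mutant points lie below those of WT for each gene, with S1S2 lower for Col3a1 and Fbn2 and G9Gl lower for Dcn, H19 and Igf2.

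Among matrix proteases and inhibitors, 4 of 32 tested genes rose with a call and separation (12.5%, against 2.70% of all genes) and none fell. Separated above WT were 10 (31.2%, against 12.3%), and the 4 below (12.5%) were near the 11.6% of all genes. Plau was at 33.8, 37.8 and 35.9 CPM in WT, at 48.3, 47.4 and 42.7 CPM in S1S2 and at 117, 139 and 126 CPM in G9Gl. Plau, which encodes urokinase, a protease that activates plasminogen, rose by 0.37 in S1S2 and 1.83 in G9Gl (log2 fold changes). The rise was thus mainly in G9Gl, and Plau lost its call in the fit with the mutants as 1 group. Of 37 adhesion and junction genes, 4 rose (10.8%, against 2.70% of all genes) and 1 fell (2.70%, against 1.67%) with a call and separation. Separated above WT were 11 (29.7%, against 12.3%), and the 4 below (10.8%) were near the 11.6% of all genes. Itga3 was at 76.9, 81.5 and 64.97 CPM in WT, at 225, 228 and 209.9 CPM in S1S2 and at 139, 159 and 165 CPM in G9Gl. The integrin gene Itga3, a laminin receptor, had a pooled log2 fold change of 1.31 ± 0.11 (SE, edgeR adjusted p = 4.84e-11), and the connexin gene Gjb2 one of 1.71 ± 0.11 (SE, edgeR adjusted p = 1.28e-11), from 11.2 ± 1.33 CPM in WT, 44.9 ± 4.49 in S1S2 and 30.2 ± 0.867 in G9Gl (SD, n = 3). Cdh11, the cadherin of mesenchymal cells, was the member that fell, with 2.23 ± 0.0320 CPM in WT, 0.430 ± 0.101 in S1S2 and 0.524 ± 0.236 in G9Gl (SD, n = 3) and a pooled log2 fold change of -2.20 ± 0.21 (SE, edgeR adjusted p = 5.58e-07).

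Signalling genes were split in direction. Of 46 growth factors and receptors, 5 rose (10.9%, against 2.70% of all genes) and 6 fell (13.0%, against 1.67%) with a call and separation. Hbegf was at 10.3, 9.88 and 9.93 CPM in WT, at 39.4, 41.4 and 34.4 CPM in S1S2 and at 18.7, 17.9 and 18.2 CPM in G9Gl. Pdgfb was at 7.11, 8.03 and 6.90 CPM in WT, at 23.3, 23.4 and 22.3 CPM in S1S2 and at 10.04, 13.6 and 12.6 CPM in G9Gl. These ligands of the EGF and PDGF receptors rose by 1.94 and 1.65 in S1S2 and by 0.86 and 0.72 in G9Gl. Igf2 was at 30.9, 34.6 and 33.6 CPM in WT, at 7.26, 7.03 and 8.94 CPM in S1S2 and at 0.0702, 0.144 and 0.0979 CPM in G9Gl. The insulin-like growth factor gene Igf2 and the noncoding H19 beside it, both imprinted, fell. H19 was at 18.7, 20.5 and 16.8 CPM in WT, at 0.506, 0.583 and 0.564 CPM in S1S2 and at 0.0702, 0.108 and 0.0326 CPM in G9Gl. The fall of H19 was -5.06 in S1S2 and at least 173-fold in G9Gl, and 60.7% of the 75-base windows of Igf2 occur in other annotated transcripts of the locus. Fgf10, at 0.731 CPM on average in WT, fell to the floor. Of 40 genes of the TGF-beta and BMP pathway, 2 rose (5.0%) and 4 fell (10%) with a call and separation, and the BMP antagonist Nog was among those that rose (1.36 ± 0.11 (SE, edgeR adjusted p = 9.36e-07)). Grem1 was at 110.1, 112 and 106 CPM in WT, at 21.3, 20.3 and 20.4 CPM in S1S2 and at 52.4, 45.1 and 40.3 CPM in G9Gl. Grem1, another BMP antagonist, fell in both, by -2.40 and -1.25. Bmp4 fell by -1.01 ± 0.11 (SE, edgeR adjusted p = 4.71e-10), with a value of -0.99 without WT replicate 1 and -0.94 without WT replicate 2, short of 2-fold. Of 34 Wnt pathway genes, 1 rose (2.94%, near the share of all genes) and 2 fell (5.88%, against 1.67%) with a call and separation. In the pooled contrast 7 of the 34 were called lower, against 2.81% of all tested genes, and only 2 of these 7 were separated. Wnt7b rose (1.92 ± 0.33 (SE, edgeR adjusted p = 1.09e-08)), and Dkk2, an inhibitor, and the receptor gene Fzd1 fell (-2.83 ± 0.21 (SE, edgeR adjusted p = 3.66e-10) and -1.15 ± 0.05 (SE, edgeR adjusted p = 2.41e-12)). Slit2 was at 484, 492 and 514 CPM in WT, at 96.3, 92.03 and 104 CPM in S1S2 and at 194, 177 and 182 CPM in G9Gl. The axon guidance ligand Slit2 fell in both mutants, with a pooled log2 fold change of -1.89 ± 0.04 (SE, edgeR adjusted p = 1.12e-15). Epha2, a receptor of the ephrins, rose, with 55.6 ± 5.74 CPM in WT, 174 ± 9.79 in S1S2 and 108 ± 3.46 in G9Gl (SD, n = 3).

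Transcription factors of the limb and mesenchyme were lower more often than higher. Of 46 tested, 11 were separated below WT (23.9%, against 11.6% of all genes) and 2 above (4.35%, against 12.3%). With a call and separation, 4 fell (8.70%, against 1.67%) and 1 rose (2.17%, against 2.70%). Eya4 was at 51.3, 49.5 and 54.7 CPM in WT, at 13.7, 15.7 and 15.8 CPM in S1S2 and at 0.386, 0.359 and 0.261 CPM in G9Gl. Lmx1b was at 10.6, 11.8 and 9.06 CPM in WT, at 3.13, 4.08 and 3.48 CPM in S1S2 and at 0, 0 and 0 CPM in G9Gl. Tbx5 was at 18.5, 16.99 and 17.4 CPM in WT, at 4.09, 4.70 and 5.31 CPM in S1S2 and at 13.8, 13.4 and 13.02 CPM in G9Gl. Eya4 and Lmx1b were lowest in G9Gl, where Lmx1b was not detected, and Tbx5, a factor of the forelimb, was lowest in S1S2. The fourth was Cebpa, and the factor that rose was Tbx2, with 0.416 ± 0.0406 CPM in WT, 1.62 ± 0.353 in S1S2 and 0.549 ± 0.0773 in G9Gl (SD, n = 3). Clustered protocadherins, which give neurons their identity at the surface, had 9 of 26 tested members called lower and separated (34.6%, against 1.67% of all genes), of which 8 were of the beta cluster. The list as a whole did not fall in both mutants. Its median fitted log2 fold change, over members that include some at the floor, was 0.41 in S1S2 and -2.54 in G9Gl, and its summed level was 147.4 to 152.7 CPM in WT, 157.5 to 165.8 in S1S2 and 86.97 to 90.38 in G9Gl. Pcdhb22 was at 9.81, 9.69 and 10.5 CPM in WT, at 1.47, 1.02 and 1.18 CPM in S1S2 and at 1.09, 1.04 and 1.44 CPM in G9Gl. Pcdhb19 was at 3.38, 3.80 and 4.32 CPM in WT, at 0.138, 0.0729 and 0.141 CPM in S1S2 and at 0.561, 0.431 and 0.359 CPM in G9Gl. Pcdhb22 fell by -3.04 in S1S2 and -3.06 in G9Gl (log2 fold changes), and Pcdhb19 fell more in S1S2. Pcdhb22 and Pcdhb21 overlap and share up to 8.96% of their 75-base windows, and with at least 10 counts in every library 2 of the 9 were left.

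Zinc finger genes named Zfp, many of which encode KRAB repressors of repeats, were shifted slightly down. Of 339 tested, 59 were separated below WT (17.4%, against 11.6% of all genes) and 10 above (2.95%, against 12.3%), with a median of -0.10. Called and separated were 4, all lower, a share of 1.18% that is under the 1.67% of all genes, of which Zfp503 was the most abundant, with 40.6 ± 3.29 CPM in WT, 9.57 ± 1.001 in S1S2 and 21.4 ± 1.11 in G9Gl (SD, n = 3). The machinery of H3K9 silencing, 34 tested genes with the targeted ones included, had 10 members separated below (29.4%, against 11.6% of all genes) and 2 above (5.88%, against 12.3%), none called by edgeR or DESeq2, and 25 with an unadjusted p under 0.05 (73.5%, against 51.9%). Whole chromosomes differed as well. On chromosome 1, 28.1% of 1069 genes were separated below WT and 4.40% above, with median log2 fold changes of -0.13 in S1S2 and -0.26 in G9Gl, and on chromosome 16 24.8% of 451 genes were below (medians -0.09 and -0.20). On chromosome 19, 3.08% were below, and its median was 0.34 in S1S2 and -0.17 in G9Gl. After the median of each chromosome was removed, 408 rises and 251 falls were called and separated, of which 398 and 242 were the same genes. The part of DNA copy number in these shifts was not tested.

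Markers of other cell types were scarce, and 3 of them were called higher and separated. Of 6 endothelial and 6 epithelial markers, 2 and 2 had enough reads to be tested. Kdr and Cdh5 of endothelium were called and separated in the pooled contrast, but each was raised mainly in one mutant. Kdr was at 0, 0 and 0.0645 CPM in WT, at 1.29, 1.02 and 1.36 CPM in S1S2 and at 0.246, 0.0718 and 0.0979 CPM in G9Gl. Cdh5 was at 0, 0 and 0 CPM in WT, at 0.0919, 0.109 and 0.0470 CPM in S1S2 and at 1.51, 0.503 and 1.01 CPM in G9Gl. In S1S2, Cdh5 did not exceed the floor of 3 counts. Of the epithelial markers, Krt14 was called and separated, with 0 ± 0 CPM in WT, 0.0585 ± 0.0295 in S1S2 and 4.38 ± 0.646 in G9Gl (SD, n = 3), where the S1S2 libraries were at the floor. Krt8 was high in S1S2 alone, with 0.139 ± 0.0490 CPM in WT, 4.67 ± 0.512 in S1S2 and 0.221 ± 0.0812 in G9Gl (SD, n = 3). Of 8 leukocyte markers 2 had enough reads to be tested, Cd68 and Cd14, which summed to between 5.75 and 6.56 CPM in all 9 libraries and were not separated. No tested marker of neurons, muscle, adipocytes or pluripotent cells was separated. Whether other cells had a part in the rise of interferon genes was not tested.

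The size of a shift often differed between the mutants even where the direction was shared. The test of G9Gl against S1S2 called 2028 genes (13.1% of those tested). Among the 419 rises, 145 were larger in G9Gl, 58 were larger in S1S2 and 216 had no called difference. Among the 260 falls, the corresponding numbers were 59, 58 and 143. The absence of a call does not show that the sizes were equal. Of the genes described above, Ifih1, Zbp1, H2-T23, Slc6a17, Apob, Trp53inp1, Kctd15, Miga1, Ptn, Pdgfra, Pdgfrb and Slit2 had no called difference in size, although Ifih1 (0.39, edgeR adjusted p = 4.56e-05) and Slit2 (0.92, edgeR adjusted p = 7.77e-11) differed by less than 2-fold (log2 difference of G9Gl minus S1S2).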

How the data were processed

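The deposited values are raw counts of reads per Ensembl gene, whole numbers that the authors did not normalize, in 1 table of all 9 libraries. Per the study's methods, stranded total RNA libraries were sequenced as 75 bp paired reads, trimmed with cutadapt, aligned to GRCm38 with STAR (2.5.2b per the submitters' processing notes) under the settings recommended for TEtranscripts, which counted the reads. The annotation release and the use of strand in counting are not given in the sources used here. Repeats were not analysed here, and 1 gene that the rule names is not reported here.

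Of 47937 genes, 47310 were matched by identifier to GENCODE M21 and 627 were not, and 21449 had no count. The filterByExpr rule of edgeR 4.0.16 (R 4.3.3) left 15540. A quasi-likelihood fit with trimmed mean of M-values scaling and 1 coefficient per genotype gave the pooled contrast, each mutant against WT and G9Gl against S1S2, with Benjamini-Hochberg adjusted p over all tested genes. The common biological coefficient of variation was 5.36%. A call required a 2-fold difference with an adjusted p no greater than 0.01. Genes at no more than 3 counts in each library of a genotype count as not detected, and folds against them are given as bounds against the highest floor of 3 counts among its libraries. Floors cover counting error only. The fit was tested on simulated counts with known changes.

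Members and gene lists were chosen with earlier results of these data known. Genes are named by rule: the 15 largest rises and falls by the smaller of the mutants' fold changes, among protein-coding genes of at least 1 CPM that were called and separated, up to 4 such genes per list and direction, the H3K9 KMT genes, and members outside the calls for range. Other genes of a list, such as Krt8, Thy1 and Cdkn1a, were named after their values were seen. Both mutants were compared with the same WT libraries, so their fold changes are not independent. Replicate numbers did not pair libraries. DESeq2 1.42.0 was an alternative.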

Additional observations from a re-analysis of the deposited data

Results flagged for a closer look

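Of 120 genes printed in the report and in the other observations, by the naming rule or beyond it, 56 differed between the mutants in their change from WT, by the edgeR test of G9Gl against S1S2 at least 2-fold and with an adjusted p of at most 0.01. The values are the log2 fold change in G9Gl minus that in S1S2, and both changes share the WT libraries. Immune genes with the larger rise in G9Gl had Oas1g 4.86, Oas2 3.37, Usp18 2.63, Slfn2 6.58, Slfn8 3.29, Iigp1 2.10, Nlrc5 3.95, Irf7 1.40, H2-D1 1.99, Tap1 1.13, Psmb9 1.61, B2m 1.57, Cd80 2.43, Sp100 1.67 and Raet1d 3.34. Other genes with a pooled rise and a higher level in G9Gl had Ces2e 1.32, Ces2f 2.65, Ces2g 1.39, Gng11 1.68, Pcdh1 4.84, Plau 1.46, Rhox5 2.86 and Thy1 4.23. Genes with a pooled fall and a higher level in G9Gl than in S1S2 had Cacna1g 1.42, Col1a2 2.36, Col3a1 2.15, Cxcl14 1.67, Dkk2 1.14, Fbn2 3.86, Fzd1 1.56, Grem1 1.15, Omd 2.00, Pcdhb21 1.90, S100a4 1.20, Suv39h1 1.30, Tbx5 1.51 and Zfp503 1.16. Genes with a pooled rise and a higher level in S1S2 had Cxcl10 -1.85, Hbegf -1.07, Kdr -3.10, Krt8 -4.38, Perp -2.42, Scn3a -1.98 and Tbx2 -1.54. Genes with a pooled fall and a lower level in G9Gl had Adgrl3 -3.99, Cacna1c -3.46, Dcn -3.47, Ehmt2 -1.60, Eya4 -5.48, Fbln1 -1.17 and Igf2 -6.16. In genes not detected in one of the mutants the difference is a bound. Cdh5 was at least 7.14-fold higher in G9Gl than the floor in S1S2, H19 was at least 5.11-fold higher in S1S2 than the floor in G9Gl, Krt14 was at least 31.1-fold higher in G9Gl than the floor in S1S2, Lmx1b was at least 33.1-fold higher in S1S2 than the floor in G9Gl and Pcdhb19 was at least 3.19-fold higher in G9Gl than the floor in S1S2.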

How the results depend on the processing

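Leaving out each library in turn gave 560 to 610 genes called higher and 406 to 454 lower, and 422 to 448 and 258 to 281 that were also separated. DESeq2, other scalings, no low-count filter, thinning to the smallest library and removal of chromosome medians kept these counts within 1.5 times. With at least 10 counts in every library, 288 genes were called higher and 162 lower, of which 235 and 123 were separated, because fewer genes were tested. With the 6 mutant libraries as 1 group, 187 and 93 were called, all separated, since the difference between the mutants then counts as error. A test against a 2-fold limit (glmTreat) called 309 and 192, with 247 and 143 separated, and a limit of 0.05 on the adjusted p, with any fold, called 3553 and 3557, with 1853 and 1715 separated. Both mutants called on their own left 248 and 131. With a replicate block, 418 rises and 257 falls were called and separated, of which 417 and 256 were shared with the fit without it. The numbers were taken as names only, since deviations of same-numbered libraries correlated at -0.0686 to 0.124. The block ended the call of the histone gene Hist1h2ao among the genes that the naming rule picks.

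Recounts of lists were chosen after seeing the data. With at least 10 counts in every library, 20 interferon effectors, 2 protocadherins and 3 matricellular genes were called and separated. With the mutants as 1 group, there were 14 interferon effectors, 5 sensors, 1 MHC class I gene, 2 fibroblast markers and 3 matricellular genes. With the limit of 0.05 and any fold there were 16 sensors, 12 MHC class I genes and 11 matricellular genes, and under glmTreat 3 MHC class I genes. The naming rule picks 130 genes, not all of them printed above. Of its 124 genes with a call, 62 lost it with the mutants as 1 group and 28 under glmTreat. None reversed direction in a setting where it was tested. All 130 were tested in each setting except thinning (125) and at least 10 counts in every library (69). Depth limits what can be said of the 62 rises not detected in WT and of the 11 falls not detected in either mutant.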

Other observations

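Members of other gene lists moved in both mutants. Of 34 tested sodium, calcium and potassium channel genes, 4 rose and 2 fell with a call and with all 6 mutant libraries on that side of WT (11.8% and 5.88%, against 2.70% and 1.67% of all tested genes). Cacna1g was at 32.1, 34.4 and 27.5 CPM in WT, at 4.60, 4.70 and 5.55 CPM in S1S2 and at 13.4, 14.04 and 12.1 CPM in G9Gl. Cacna1c was at 25.4, 28.6 and 26.3 CPM in WT, at 17.1, 16.4 and 16.8 CPM in S1S2 and at 1.65, 1.29 and 1.60 CPM in G9Gl. These encode pores of T-type and L-type calcium channels, and the former was lowest in S1S2 and the latter in G9Gl. Scn3a was at 3.23, 4.46 and 3.42 CPM in WT, at 20.1, 23.4 and 21.02 CPM in S1S2 and at 5.44, 5.78 and 5.22 CPM in G9Gl. The sodium channel gene Scn3a rose, mainly in S1S2. Of 206 solute carrier genes, 6 rose and 5 fell (2.91% and 2.43%), shares near those of all tested genes. Slc16a9 was at 0.431, 0.430 and 0.612 CPM in WT, at 2.53, 2.70 and 2.63 CPM in S1S2 and at 2.32, 1.87 and 2.29 CPM in G9Gl. Slc16a9, of the monocarboxylate transporter family, rose in both mutants, with log2 fold changes of 2.41 in S1S2 and 2.13 in G9Gl, and shares 16.5% of its 75-base windows with predicted genes.

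Tet1 encodes an enzyme that oxidises 5-methylcytosine. It was the 1 of 20 DNA methylation genes called and separated, on the lower side (5.0%, against 1.67% of all tested genes). Of the 20, 3 were separated above WT and 3 below, where the shares of all tested genes were 12.3% and 11.6%. Tet1 was at 18.9, 18.2 and 19.9 CPM in WT, at 8.37, 7.40 and 7.24 CPM in S1S2 and at 10.04, 9.23 and 10.5 CPM in G9Gl. Its pooled log2 fold change was -1.12 ± 0.06 (SE, edgeR adjusted p = 9e-10). Nqo1 was at 26.6, 24.2 and 27.9 CPM in WT, at 11.4, 8.82 and 9.55 CPM in S1S2 and at 14.1, 14.3 and 15.7 CPM in G9Gl. This quinone reductase gene, a target of NRF2, had a pooled log2 fold change of -1.12 ± 0.09 (SE, edgeR adjusted p = 1.59e-09). None of 79 respiratory chain genes was called by edgeR or DESeq2, with 36 at an unadjusted p under 0.05 (45.6%, under the 51.9% of all tested genes). Placental prolactin genes are the opposite case to the shared shifts, with 5 of 8 tested members called higher in the pooled contrast (against 4.0% of all tested genes) and none separated.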
